A study of Mus musculus with 6 samples.

Results

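This account covers 36 genes of transport between the endoplasmic reticulum (ER) and the Golgi, taken by name from a list grouped by function, drawn up with earlier results of these data known. They are 36 of the 22609 gene symbols in the read count table, and all 36 were tested. The samples are mandibular condyles of CD-1 mice at postnatal day 7, from which the articular zone (az, 3 libraries, replicates 2, 3 and 4) and the mature zone (mz, 2 libraries, replicates 2 and 3) were captured by laser from stained sections. Mature zone replicate 4 has no processed values and was not used. Each library pools sections, no source used here states how many animals went into a pool, and p-values measure the spread between these libraries. No allele, drug or other treatment distinguishes the groups, so the only comparison is the articular over the mature zone.

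Newly made secreted and membrane proteins leave the ER in vesicles coated by COPII. The coat is started by the GTPase Sar1, which recruits an inner layer of Sec23 and Sec24 and an outer layer of Sec13 and Sec31. A different coat, COPI, returns escaped ER proteins and cargo receptors from the Golgi to the ER, and the KDEL receptors catch the ER chaperones that have to go back. Cartilage cells depend on this traffic because they export large amounts of collagen and proteoglycan, and human skeletal disorders are known from mutations of SEC23A, SEC24D, TRAPPC2 and TRIP11.

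Total counts were between 15449883 and 18884685 per articular zone library and between 15555620 and 16302047 per mature zone library. Levels are given as CPM, counts scaled to library size and by TMM (a factor per library that sets aside differences in composition), or as the FPKM of the authors where genes are compared with each other, since FPKM is also per length. Chondrocyte markers summed to between 1597 and 2808 CPM in articular zone libraries and between 21070 and 34720 CPM in mature zone libraries. Of these sums, Col2a1 gave 50.5, 544 and 409 CPM in the articular zone and 10760 and 20790 CPM in the mature zone. It did not pass (adjusted p = 0.0896, edgeR). Matn1 had 0 counts in the articular zone. Acan was at 901, 1148 and 1060 CPM there, against 3218 and 4047 CPM in the mature zone. Sox9 was at 213, 195 and 185 CPM against 817 and 591 CPM. Prg4, the lubricin gene of the joint surface, was at no more than 2.87 CPM in any library, so this defining marker was almost absent from the articular zone captures. The other genes of the same list of articular surface and fibrous markers were detected. Col3a1, a fibrous collagen, was higher in the articular zone (log2 fold change 0.83, SE 0.14, adjusted p = 0.0263, edgeR), Thy1 and Postn were above both mature zone libraries in each articular zone library without passing, and Col1a1 overlapped. The list of 5 summed to between 24950.0 and 31110.0 CPM in articular zone libraries and was at 19560.0 and 22310.0 CPM in mature zone libraries. Skeletal muscle markers summed to 932 CPM in articular zone replicate 2 and 804 CPM in mature zone replicate 2, against at most 59.6 CPM in the other 3 libraries. They mark the number 2 in both zones rather than one zone. Osteoblast markers summed to 322.5, 603 and 920 CPM in articular zone replicates 2, 3 and 4, against 903 and 636 CPM in the mature zone. Osteoclast markers were at 572, 395 and 467 CPM against 408 and 190. Myeloid markers were at 160, 8.09 and 69.7 CPM against 36.4 and 19.2. Endothelial markers were at 87.55, 6.26 and 83.3 CPM against 17.5 and 0.143. Erythroid, Schwann cell and adipocyte markers were at no more than 19.84 CPM in any library.

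Most of the 36 transport genes were lower in the articular zone. Their summed level was 9670 ± 1104 CPM in articular zone libraries (SD, n = 3), against 16200 ± 787 CPM in mature zone libraries (SD, n = 2), with 8480 to 10660 CPM per articular zone library against 15650 and 16760 CPM. The fold change was below 0 on the log2 scale for 33 of the 36 genes, against 46.5% of all 13119 genes tested, and its median was -0.67, against 0.07 over all genes. In 27 of the 36 genes every articular zone library lay below both mature zone libraries, which held for 17.6% of all genes, and in 1 of the 36 every articular zone library lay above, which held for 21.1%. With CPM scaled by library totals alone this count was 24 (12.3% of all genes), and with FPKM it was 19 (11.8%). In bulk samples fewer cells of a type and less RNA per cell cannot be told apart.

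**Figure D1:**
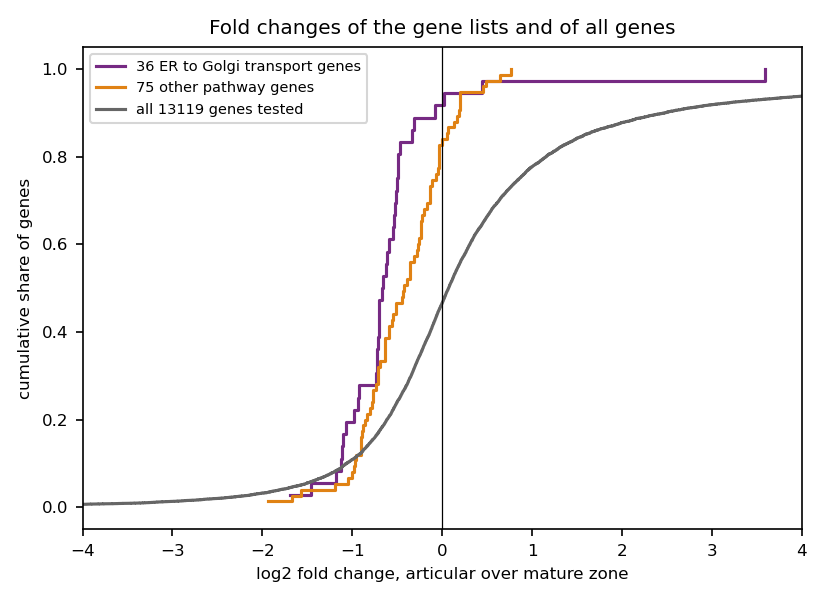
Cumulative share of genes (vertical axis) against the log2 fold change of the articular over the mature zone (horizontal axis) for the 36 transport genes, 75 other tested genes listed for the same pathway and all 13119 genes. The 75 include 4 transcription factors. The curve of the 36 genes crosses the middle at a median of -0.67 and that of all genes at 0.07; 33 of the 36 lie below 0.

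Fewer genes passed the test one by one. With edgeR's quasi-likelihood test and an adjusted p under 0.05 over all genes, 7 of the 36 were lower in the articular zone, which is 19.4% against 1.85% of all genes. Only Golph3l was higher, 1 of 36, which is 2.78% against 1.14% of all genes. In both directions together 3% of all genes passed. The 7 lower genes were Sec23a and Sec24a of the COPII coat, the cargo receptors Surf4 and Lman1, the KDEL receptor Kdelr3, the vesicle SNARE Sec22b and the Golgi protein Golph3. The calls depended on the model and on single libraries. Replicate numbers 2 and 3 occur in both zones. With the number as a block in edgeR none of the 36 passed, against 1.72% of all genes. The median log2 fold change of the 36 was -0.68 in that fit. None of the 36 genes passed when any 1 articular zone library or mature zone replicate 3 was left out, where 0.103% to 1.08% of all genes passed. In those fits 23 to 27 of the 36 had an unadjusted p under 0.05, against 14.5% to 18.2% of all genes. Without mature zone replicate 2, 7 genes were lower, against 3.48% of all genes, and Golph3l was higher, 2.78% of the 36 against 6.57% of all genes. Kdelr2 was among these 7 (adjusted p = 0.0154) and Sec23a was not (adjusted p = 0.0599), so Sec23a passed in no fit with 1 library left out. DESeq2 called 22 of the 36 lower, against 5.85% of all genes, and its calls included all 8 genes called by edgeR. Without both libraries numbered 2, which hold the muscle RNA, 9 genes were lower, against 4.7% of all genes, and Golph3l was higher, against 8.49% of all genes. Sec23a did not pass there either (adjusted p = 0.058), and Kdelr2, Sar1b and Copz1 did.

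**Figure D2:**
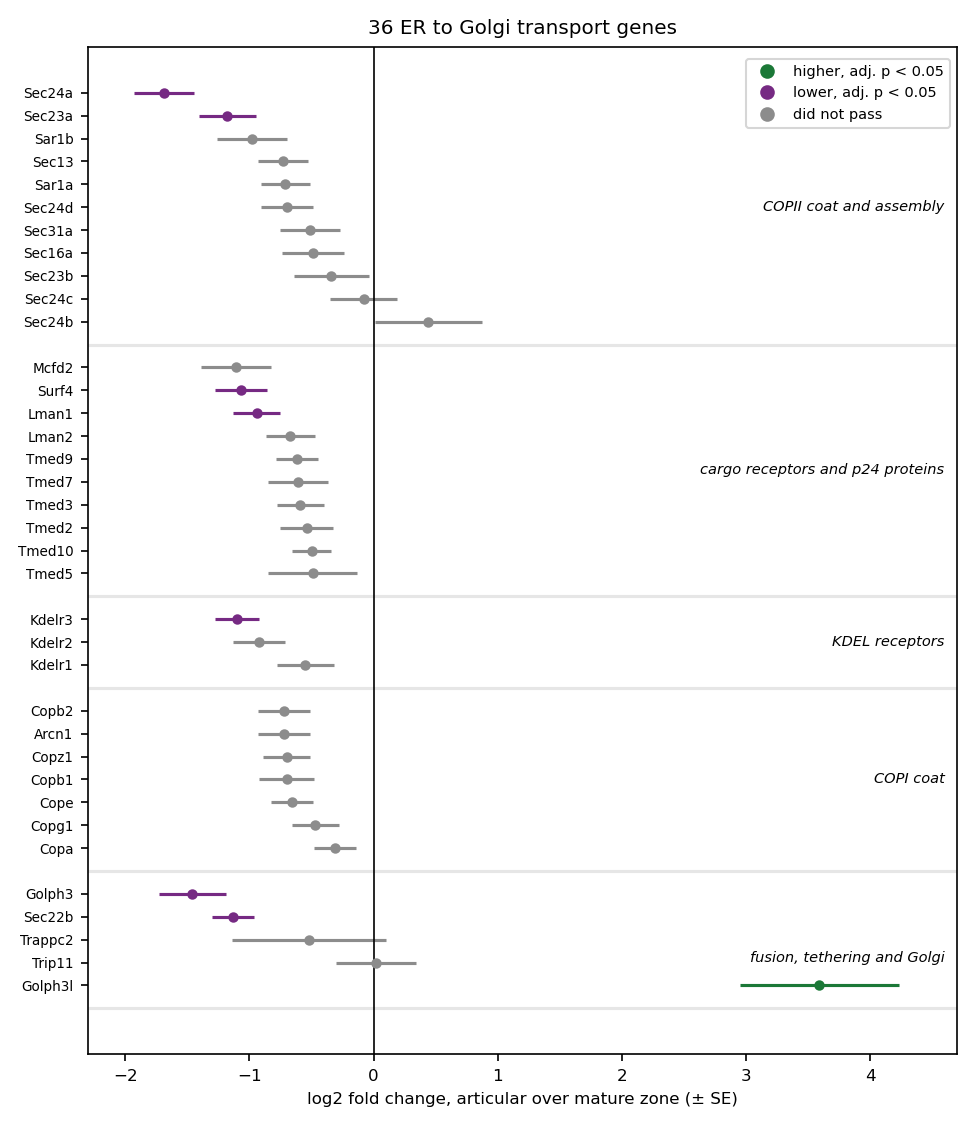
Log2 fold change of the articular over the mature zone (horizontal axis, bars ± SE) for each of the 36 genes, grouped by role. Purple points (7 genes) were lower and the green point (Golph3l) was higher at an adjusted p under 0.05, and grey points did not pass; Golph3l stands alone at 3.59 and the COPI subunits lie together between -0.72 and -0.31.

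Among the 11 genes of the COPII coat and its assembly, Sec23a and Sec24a fell and the other 9 did not pass. Sec24a encodes a coat subunit that binds cargo signals (chromosome 11, 51692263 to 51757161, GRCm38). It was at 59.1, 56.6 and 49.5 CPM in the articular zone, against 153.9 and 201.5 CPM in the mature zone. The lowest mature zone library was well above the highest articular zone library. Its log2 fold change was -1.69 (SE 0.24, adjusted p = 0.0150, edgeR), between -1.87 and -1.48 when each library was left out. Sec23a encodes the inner coat subunit that activates the GTPase of Sar1 (chromosome 12, 58958384 to 59012017). It was at 133, 124 and 175 CPM in the articular zone, against 373 and 280.2 CPM in the mature zone, and the zones did not overlap. The log2 fold change was -1.18 (SE 0.23, adjusted p = 0.0379), between -1.37 and -0.96 when each library was left out.

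The outer coat and the GTPases had smaller differences that did not pass the test. Sec13, shared by the outer coat and the nuclear pore, was at 314, 447 and 392 CPM in the articular zone and 589 and 684 CPM in the mature zone (log2 fold change -0.73, SE 0.20, adjusted p = 0.101). Its partner Sec31a overlapped between the zones, at 330.2, 483 and 384 CPM in the articular zone and 454 and 682 CPM in the mature zone (-0.51, SE 0.24). Sar1a, a GTPase that starts the coat, was at 439.8, 535 and 369 CPM in the articular zone, against 692 and 775 CPM in the mature zone (-0.71, SE 0.20). Its paralog Sar1b was at 79.4, 139 and 144 CPM in the articular zone, against 216 and 262 CPM in the mature zone (-0.98, SE 0.28). Neither GTPase gene overlapped between the zones, and Sar1a was the more abundant in counts in each library. Sec24d, for which human mutations affect bone, was at 137, 188 and 151 CPM in the articular zone, against 247 and 269 CPM in the mature zone, also without overlap (-0.70, SE 0.21, adjusted p = 0.122). Sec16a, the scaffold of ER exit sites, had -0.49 (SE 0.25), and its zones overlapped. Sec23b was at 57.5, 84.4 and 59.0 CPM in the articular zone and 70.6 and 98.8 CPM in the mature zone (-0.34, SE 0.30). Sec24c was at 80.3, 113 and 110.3 CPM in the articular zone and 88.1 and 126 CPM in the mature zone (-0.08, SE 0.27). Sec24b was at 46.7, 55.8 and 65.1 CPM in the articular zone and 58.9 and 23.5 CPM in the mature zone (0.44, SE 0.43). All 3 overlapped, and for Sec24b the mature zone libraries were farther from each other than the zones. The value of Sec24c turned to 0.02 with upper-quartile normalization, and that of Sec24b to -0.07 without mature zone replicate 3. As a group the 11 genes summed to 2047 ± 265 CPM in articular zone libraries (SD, n = 3), against 3330.0 ± 373 CPM in mature zone libraries (SD, n = 2).

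The promoters of these genes were searched for sequence elements that are known from the unfolded protein response, because genes of that response include many of the secretory pathway. RefSeq promoters (GRCm38.p6, from 250 bases before to 50 bases after the start) were found for 31 of the 36 genes, as 33 sequences. The element TGACGTGG, searched on both strands, is bound by ATF6 and XBP1 in known cases. It was found in 5 of the 33, which is 15.2%, against 0.676% of all 32851 promoters and 0.921% of the 11074 promoters with a GC content of at least 58.3%, the median of the 33. The 5 genes were Sec23a, Sec24d, Kdelr3, Copb1 and Copb2, of which Sec23a and Kdelr3 fell in the articular zone. Its inner part GACGTG, which overlaps it, was found in 13 of the 33 (39.4%, against 6.38% of all promoters). The long ER stress elements ERSE and ERSE-II, searched in the same way, were found in none of the 33, against 0.119% and 0.0365% of all promoters. Of the other called genes, Sec24a, Surf4, Sec22b, Golph3 and Golph3l had promoters with neither TGACGTGG nor GACGTG, and no promoter was found for Lman1. The promoter of Golph3 (12321246 to 12321545) lies inside the gene, which is listed from position 12320488. A match describes the letters only, and binding was not measured.

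The promoters of both called genes with the element are shown whole, 5′ to 3′ on the strand of the gene, with TGACGTGG or GACGTG of either strand in capitals. Below them stand 40 bases around the element of the other 3 genes, with only the element in capitals (CCACGTCA is TGACGTGG read on the other strand). The first base of the element lies 30 bases before the start used for the promoter of Kdelr3. In Sec23a it is at base 7, counting the start as the first base. It lies 26, 28 and 7 bases before the starts used for Sec24d, Copb1 and Copb2, so all 5 lie near the start used. For Sec24d that start lies inside the gene, which is listed from position 123264801.
Kdelr3, chr15:79516158-79516457, plus strand: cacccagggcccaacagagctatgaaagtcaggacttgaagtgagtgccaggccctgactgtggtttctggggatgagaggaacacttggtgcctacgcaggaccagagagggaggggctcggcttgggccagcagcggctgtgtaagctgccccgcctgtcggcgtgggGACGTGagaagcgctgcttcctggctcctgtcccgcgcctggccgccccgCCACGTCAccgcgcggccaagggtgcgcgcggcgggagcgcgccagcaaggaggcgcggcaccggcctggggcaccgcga
Sec23a, chr12:59011968-59012267, minus strand: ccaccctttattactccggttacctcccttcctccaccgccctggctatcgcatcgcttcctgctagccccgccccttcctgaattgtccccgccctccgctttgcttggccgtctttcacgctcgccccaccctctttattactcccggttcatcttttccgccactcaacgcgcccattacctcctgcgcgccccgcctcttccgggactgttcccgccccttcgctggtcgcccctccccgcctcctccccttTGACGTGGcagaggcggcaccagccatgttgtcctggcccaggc
Sec24d, chr3:123267454-123267493, plus strand: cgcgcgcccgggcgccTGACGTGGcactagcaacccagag
Copb1, chr7:114254685-114254724, minus strand: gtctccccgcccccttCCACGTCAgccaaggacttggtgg
Copb2, chr9:98563708-98563747, plus strand: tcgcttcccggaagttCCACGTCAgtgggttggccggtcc

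Cargo receptors link proteins inside the ER to the coat outside, and all 10 listed receptor genes had a fold change below 0. Surf4 and Lman1 fell and the other 8 did not pass. Surf4 encodes a receptor of many soluble cargoes (chromosome 2, 26920041 to 26933776). It was at 355, 495 and 540.3 CPM in the articular zone, against 1028 and 923 CPM in the mature zone, with no overlap. Its log2 fold change was -1.07 (SE 0.21, adjusted p = 0.0385, edgeR). Lman1 encodes the mannose-binding lectin that carries glycoproteins out of the ER. Its level was 290.4, 354 and 286 CPM in the articular zone, against 534 and 657 CPM in the mature zone, again without overlap. On the log2 scale it fell by 0.94 (SE 0.19, adjusted p = 0.0418). Mcfd2, the partner protein of Lman1 in coagulation factor export, was at 78.4, 60.7 and 108 CPM in the articular zone, against 167 and 187 CPM in the mature zone (-1.11, SE 0.28, adjusted p = 0.0792), so its change was as large but more variable and did not pass.

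The related lectin gene Lman2 and the p24 family, membrane proteins of ER to Golgi vesicles, had values close to each other. Lman2 was at 128, 119 and 149 CPM in the articular zone, against 228 and 193 CPM in the mature zone. Tmed3, the p24 gene with the highest FPKM, was at 406, 554 and 509 CPM in the articular zone, against 675 and 799 CPM in the mature zone. The log2 fold change was -0.67 (SE 0.20) for Lman2, and -0.62 (SE 0.17) for Tmed9, -0.61 (SE 0.24) for Tmed7, -0.59 (SE 0.19) for Tmed3, -0.54 (SE 0.21) for Tmed2 and -0.50 (SE 0.16) for Tmed10. None of them passed. In CPM the articular zone libraries lay below both mature zone libraries for each, which held for 17.6% of all genes. In FPKM this held for Lman2, Tmed3 and Tmed10 (11.8% of all genes), and Tmed2, Tmed7 and Tmed9 overlapped. Tmed5 overlapped between the zones (-0.49, SE 0.36), and its value was 0.11 without mature zone replicate 2. Tmed7 was at 142, 147 and 105 CPM in the articular zone, against 231 and 170.1 CPM in the mature zone. Exons of Tmed7 share 38.3% of their length with Ticam2 on the same strand, so its counts may include reads of that gene. The 10 receptor genes together reached 2941 ± 280 CPM in articular zone libraries (SD, n = 3), against 4837 ± 83.6 CPM in mature zone libraries (SD, n = 2).

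All 3 KDEL receptor genes were at lower CPM in every articular zone library than in both mature zone libraries (17.6% of all genes), which held for 2 of the 3 in FPKM, and Kdelr3 passed the test. Kdelr3 (chromosome 15, 79516408 to 79527739) was at 367, 485 and 389 CPM in the articular zone, against 870.5 and 905 CPM in the mature zone. The mature zone libraries were close to each other and above all of the articular zone. The log2 fold change was -1.10 (SE 0.18, adjusted p = 0.0216, edgeR), between -1.22 and -1.02 when each library was left out. Kdelr2, the most abundant of the 36 genes per length, was at 1147, 1501 and 1252 CPM in the articular zone, against 2002 and 2928 CPM in the mature zone. Its log2 fold change of -0.92 (SE 0.21) did not pass (adjusted p = 0.0614), and it did pass with limma-voom (0.0211) and with DESeq2. Kdelr1 was at 78.9, 98.2 and 84.8 CPM in the articular zone, against 137 and 118 CPM in the mature zone. For Kdelr1 the change was -0.55 (SE 0.23, adjusted p = 0.235).

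**Figure D3:**
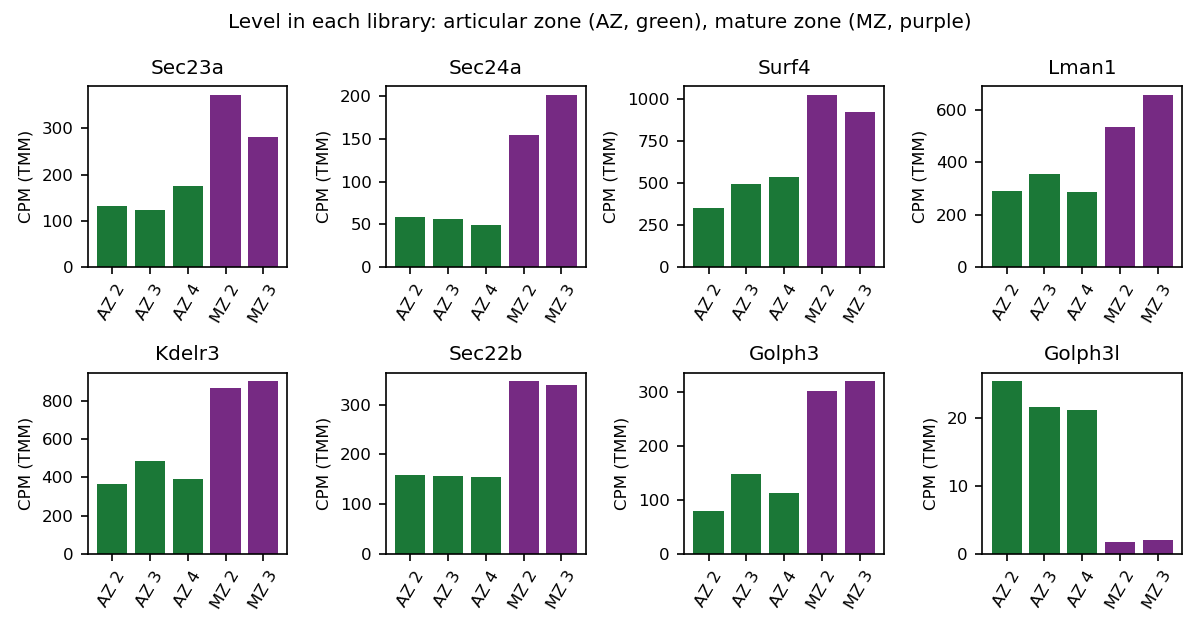
TMM-scaled CPM (vertical axes, from 0) of the 8 genes that passed the test in each library, with the 3 articular zone libraries in green and the 2 mature zone libraries in purple. In 7 genes each green bar is below both purple bars, and in Golph3l each green bar (21.2 to 25.4 CPM) is above both purple bars (1.71 and 2.07 CPM).

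The 7 genes of the COPI coat were close to each other and none passed the test. Their log2 fold changes were -0.72 (SE 0.21) for Copb2, -0.72 (SE 0.21) for Arcn1, the delta subunit, -0.70 (SE 0.19) for Copz1, -0.70 (SE 0.22) for Copb1, -0.66 (SE 0.17) for Cope, -0.47 (SE 0.19) for Copg1, listed in the table under its older symbol Copg, and -0.31 (SE 0.17) for Copa. The adjusted p from edgeR was between 0.0884 and 0.366, and Copa was the one gene of the coat with an unadjusted p above 0.05. For each of the 7, every articular zone library was below both mature zone libraries in CPM, against 17.6% of all genes. On the FPKM scale this held for 3 of the 7 (11.8% of all genes), and Copa, Copb1, Copg1 and Arcn1 overlapped. Copa, for example, was at 35.0, 41.4 and 38.1 FPKM in the articular zone and 47.0 and 35.7 FPKM in the mature zone. Cope, the epsilon subunit and the most abundant per length, was at 343, 423 and 384 CPM in the articular zone, against 598 and 616 CPM in the mature zone. DESeq2 called 5 of the 7 lower, against 5.85% of all genes. The coat together reached 2473 ± 308 CPM in articular zone libraries (SD, n = 3), against 3781 ± 207 CPM in mature zone libraries (SD, n = 2).

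Of the 5 genes of fusion, tethering and the Golgi, Sec22b and Golph3 fell, Golph3l rose, and Trappc2 and Trip11 did not pass. Sec22b encodes a SNARE, a protein that fuses ER to Golgi vesicles with their target membrane (chromosome 3, 97901227 to 97922318). It was at 159, 156 and 155 CPM in the articular zone, against 347 and 339 CPM in the mature zone. Relative to their mean, the libraries of each zone lay close together. The log2 fold change was -1.13 (SE 0.17, adjusted p = 0.0171, edgeR), between -1.15 and -1.11 when each library was left out. Trip11, the Golgi tether GMAP-210 whose loss causes achondrogenesis in humans, was at 73.3, 120.6 and 114 CPM in the articular zone and 75.9 and 126 CPM in the mature zone (0.02, SE 0.32). That value took either sign across the other fits. Trappc2, a subunit of the TRAPP tether, had the fewest counts in the articular zone, 130, 155 and 346, against 280 and 206 in the mature zone (-0.52, SE 0.62).

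Golph3 and its paralog Golph3l went in opposite directions. Golph3 encodes a protein that binds a lipid of the Golgi and holds glycosylation enzymes in place, and in human cells GOLPH3L is known to act against it and is found mainly in secretory tissues. Golph3 (chromosome 15, 12320488 to 12351601) was at 80.1, 149 and 112 CPM in the articular zone, against 303.5 and 321 CPM in the mature zone. Its change on the log2 scale was -1.46 (SE 0.27, adjusted p = 0.0311, edgeR). The raw counts of Golph3l (chromosome 3, 95588915 to 95619247) were 441, 342 and 422 in articular zone libraries, against 26 and 29 in mature zone libraries. In CPM its level was 22.8 ± 2.32 in articular zone libraries (SD, n = 3), against 1.89 ± 0.254 in mature zone libraries (SD, n = 2), so every articular zone library was far above both mature zone libraries. The log2 fold change was 3.59 (SE 0.64, adjusted p = 0.0292), between 3.46 and 3.73 when each library was left out. limma-voom did not call it (adjusted p = 0.106). Exons of Golph3 overlap the oppositely oriented 1810049J17Rik over 14.9% of their length, and those of Golph3l overlap Gm42671 on the same strand over 5.77%. No source used here says whether counting took account of strand.

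Paralogs were compared by their ratio within each library, which needs no scaling between libraries. With 5 libraries there are 10 ways to choose 3, so the exact permutation test (two-sided) cannot go below p = 0.1, and over the 10 pairs compared the adjusted p was at least 0.25. The log2 ratio of Golph3 to Golph3l was 1.65, 2.78 and 2.40 in articular zone libraries, against 7.45 and 7.25 in mature zone libraries. The difference of -5.07 had the smallest possible p (exact p = 0.1). Per length, Golph3 was at 3.14, 7.13 and 5.23 times the FPKM of Golph3l in the articular zone, against 173 and 141 times in the mature zone. Golph3 was thus the more abundant paralog in every library of both zones.

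The log2 ratio of Sec23a to Sec23b was 1.21, 0.55 and 1.57 in articular zone libraries, against 2.40 and 1.5 in mature zone libraries. These values overlap, and the difference of -0.84 had an exact p = 0.3. So although Sec23a passed the test and Sec23b did not, a difference between their changes was not shown. Per length, the FPKM of Sec23a was 1.16, 0.773 and 1.47 times that of Sec23b in the articular zone, against 2.61 and 1.48 times in the mature zone, so that Sec23b was the higher in 1 articular zone library.
The ratios of the cargo subunits did not overlap between the zones. The log2 ratio of Sec24a to Sec24b was 0.34, 0.02 and -0.39 in the articular zone, against 1.39 and 3.10 in the mature zone (difference -2.25, exact p = 0.1). It was -1.40 without mature zone replicate 3, in which Sec24b was lowest, and -3.11 without mature zone replicate 2. Sec24d to Sec24c was 0.77, 0.73 and 0.45 in the articular zone, against 1.48 and 1.10 in the mature zone (difference -0.64, exact p = 0.1).

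The KDEL receptors kept nearly fixed ratios in the articular zone. The log2 ratio of Kdelr3 to Kdelr1 was 2.22, 2.30 and 2.2 there, against 2.66 and 2.94 in the mature zone (difference -0.56, exact p = 0.1), without overlap. Kdelr2 to Kdelr1 (difference -0.36, exact p = 0.3) and Kdelr3 to Kdelr2 (difference -0.21, exact p = 0.4) each turned to a value near 0 with 1 mature zone library left out. The remaining pairs overlapped. The difference was 0.30 for Sar1a to Sar1b (exact p = 0.6), 0.01 for Tmed3 to Tmed7 (exact p = 0.9) and -0.27 for Lman1 to Lman2 (exact p = 0.4). With so few libraries, a p of this size does not show that the ratios are alike.

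**Figure D4:**
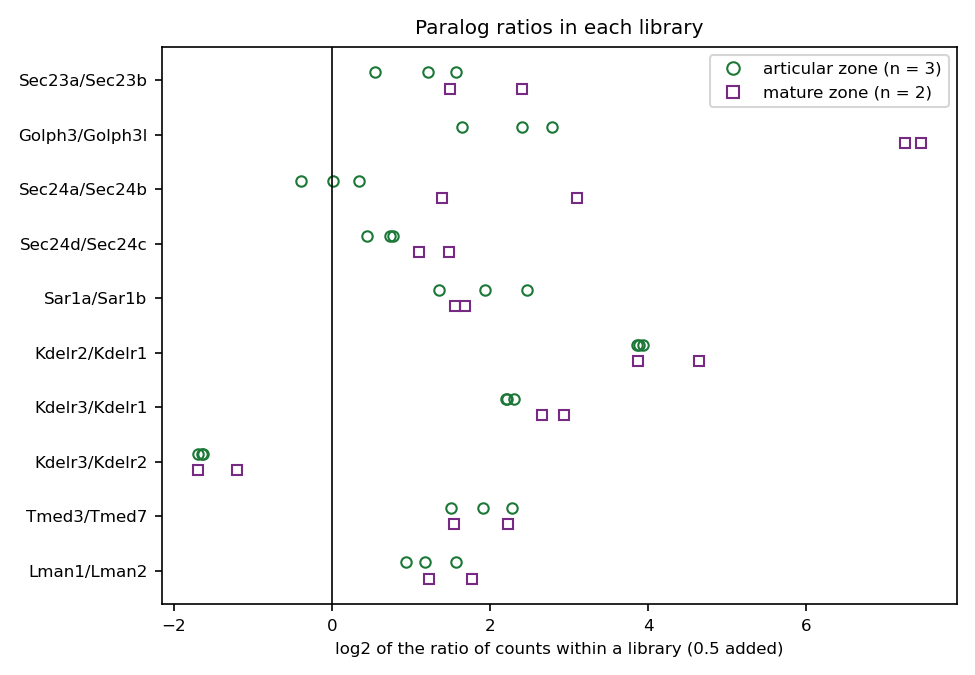
Log2 of the ratio of counts of 10 paralog pairs within each library (horizontal axis), with articular zone libraries as green circles and mature zone libraries as purple squares. The zones are farthest apart for Golph3/Golph3l (articular zone 1.65 to 2.78, mature zone 7.25 and 7.45) and overlap for Sec23a/Sec23b.

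Levels per length spanned a wide range. Kdelr2 was highest in every library, at 348 to 454 FPKM in the articular zone and 587 and 676 FPKM in the mature zone. Cope followed at 211 to 254 FPKM in the articular zone and 302 and 357 FPKM in the mature zone. Sec13 was at 149 to 206 FPKM against 264 and 250.3 FPKM, and Tmed3 was at 147 to 203 FPKM against 234 and 226 FPKM, so these neighbours overlapped in the articular zone. Within the COPI coat, whose subunits assemble as one complex, the articular zone FPKM lay between 24 for Copg1 and 254 for Cope. Over the mean of all libraries the lowest were Sec24a, at 1.65 to 2.02 FPKM in the articular zone against 4.792 and 4.999 FPKM in the mature zone, and Golph3l, at 2.43 to 2.69 FPKM against 0.186 and 0.198 FPKM. In the mature zone Sec24b and Tmed5 had lower mean FPKM than Sec24a. Sec24a was the least abundant of the 4 Sec24 genes in the articular zone, and Sec24d the most abundant in both zones.

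**Figure D5:**
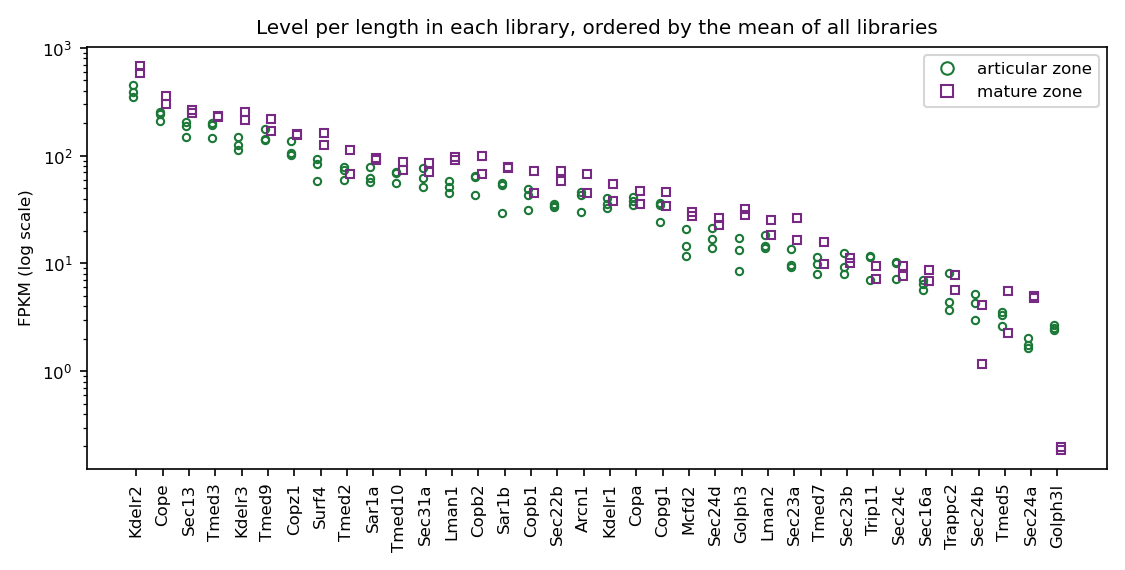
FPKM (vertical axis, log scale) of the 36 genes in each library, ordered by the mean over all libraries, with articular zone libraries as green circles and mature zone libraries as purple squares. Kdelr2 is at the left end with 348 to 676 FPKM and Golph3l at the right end, where the articular zone (2.43 to 2.69 FPKM) is above the mature zone (0.186 and 0.198 FPKM).

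Other genes of the same route were read from a list of 81 symbols, of which 75 were tested. The 75 include 4 transcription factors known to act on secretory genes, of which 1, Xbp1, was lower with edgeR. Of the 75, 4 were lower and none was higher with edgeR, which is 5.33% lower against 1.85% of all genes, and 24 had an unadjusted p under 0.05, which is 32% against 20.1% of all genes. The median log2 fold change was -0.42, and 62 were below 0. DESeq2 called 15 lower, against 5.85% of all genes, and none higher, against 7.91%. By role the median was -0.71 over 7 other COPII genes, -0.63 over 13 SNAREs and their partners, -0.56 over 11 other COPI genes, -0.28 over 31 tethers and Rab GTPases and -0.14 over 9 other cargo receptor and p24 genes. Preb, the exchange factor that loads Sar1 with GTP at the ER, was at 67.0, 86.9 and 66.1 CPM in the articular zone, against 200.5 and 362 CPM in the mature zone. Its log2 fold change was -1.94 (SE 0.29, adjusted p = 0.0163, edgeR). Arf2 and Arf4, GTPases of the family that recruits COPI, both fell. Arf2 was at 59.2, 64.3 and 73.5 CPM in the articular zone, against 195 and 223 CPM in the mature zone (log2 fold change -1.67, SE 0.22, adjusted p = 0.0107). Arf4 was at 792, 858 and 801 CPM in the articular zone, against 1516 and 1533 CPM in the mature zone (-0.90, SE 0.15, adjusted p = 0.0222). In both the mature zone libraries were close to each other and above every articular zone library. Arf1, the family member best known for that role, did not pass, with -0.51 (SE 0.18, adjusted p = 0.167).
Transcription factors known to act on secretory genes were in the list too. Xbp1, a factor of the unfolded protein response, was at 124, 140.1 and 151 CPM in the articular zone, against 280.2 and 274 CPM in the mature zone (log2 fold change -1.0, SE 0.19, adjusted p = 0.0336). Creb3l2, known in mouse chondrocytes to activate Sec23a, was at 19.3, 28.1 and 23.4 CPM in the articular zone, against 48.7 and 59.3 CPM in the mature zone, without overlap (-1.19, SE 0.35, adjusted p = 0.116). Creb3l1 (-0.64, SE 0.24, adjusted p = 0.188) and Atf6 (0.17, SE 0.47, adjusted p = 0.899) did not pass either. Mia3, a collagen export receptor also called TANGO1, is listed at 0 counts in every library, and so are Mia2, Sec31b, Tmed6 and Tmed11. Ctage5, another symbol of Mia2, had counts (-0.89, SE 0.45, adjusted p = 0.315). Without 1 articular zone library, whichever it was, none of the 75 passed with edgeR, and 15 to 18 had an unadjusted p under 0.05, a share of 20% to 24% against 14.5% to 18.2% of all genes. Without mature zone replicate 3, 1 was lower, against 0.627% of all genes, and without mature zone replicate 2 there were 11, against 3.48%.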

How the data were processed

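Poly(A) libraries of the captured zones were sequenced single-end by the authors, trimmed with Trimmomatic 0.32 and mapped to mm10 with SHRiMP. No source used here names the counting tool or how it treated strand. Raw reads per gene symbol make up the deposited counts. In the deposited FPKM the authors adjusted for gene length and mapped fragments, with 0.1 as the lowest value. A table of the authors' own fold changes and p-values for called genes was not used.

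The count test was edgeR 4.0.16 in R 4.3.3 (TMM, glmQLFit robust, glmQLFTest, zone alone, 3 residual degrees of freedom) on 13119 genes that reached 10 counts in 2 or more libraries, with Benjamini-Hochberg adjustment over all of them and 0.05 as the threshold. The script was tested on simulated data. Of genes given a log2 fold change of 1 in either direction, 3.03% were called, against 38.8% at 2 and 59.7% at 3. A gene that did not pass may therefore still differ between the zones. Common biological coefficient of variation was 0.68. For 7 listed symbols an older symbol in the table was matched through RefSeq synonyms. Ratios had 0.5 added to counts. Coordinates are those of GRCm38.p6 and exon overlaps come from GENCODE. Every member is named; of other pathway genes those called and 4 transcription factors are named by rule, and Arf1, Ctage5 and genes listed at 0 were chosen after their values were seen. Members and lists were chosen with earlier results of these data known. Alternatives were DESeq2 1.42.0, limma 3.58.1 (voom, or on log2 FPKM), other normalizations and filters, a replicate block and libraries left out. Protein sequences were not analysed here. Python 3.11.15, pandas 2.3.3 and matplotlib 3.10.9 made tables and plots.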

Additional observations from a re-analysis of the deposited data

How the results depend on the processing

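The 8 genes that passed kept their sign in all 16 other fits, and 32 of the 36 genes did. The number of transport genes lower (7, which is 19.4% against 1.85% of all genes) became 4 with upper-quartile normalization (11.1% against 1.53%). That normalization moved the median of all genes by 0.096. With DESeq2 the number was 22 (61.1% against 5.85%). With limma on log2(FPKM + 1) it was 1, which is 2.78% and near the 2.09% of all genes. It was 0 with that and no filter (0.00445% of all genes) and with limma on log2(FPKM + 0.1) (1.4%). The replicate block (1.11%) and an adjusted p under 0.01 (0.206%) also left 0. So did leaving out any 1 articular zone library (0.103% to 0.664% of all genes). The number higher (1, which is 2.78% against 1.14% of all genes) became 0 with limma-voom (0.656% of all genes). It was 0 with limma on log2(FPKM + 1) without a filter (0%) and with the replicate block (0.617%). An adjusted p under 0.01 (0.0381%) or any 1 articular zone library left out (0% to 0.203%) also gave 0. Other pathway genes lower (4) became 15 with DESeq2, 2 with limma on log2(FPKM + 1), 0 with no filter on FPKM, 2 with log2(FPKM + 0.1), 2 with the replicate block, 11 without both libraries numbered 2, 0 at an adjusted p under 0.01, and 0 to 11 when 1 library was left out. All genes called (393) became 593 with no low count filter, 1802 with DESeq2, 1 with limma on log2(FPKM + 1) without a filter, 226 with the replicate block, 1591 without both libraries numbered 2, 32 at an adjusted p under 0.01, and 13 to 1289 when 1 library was left out. The cause of these changes was not tested. Fits with fewer libraries have fewer degrees of freedom. With 1 mature zone library left, its spread is taken to be that of the articular zone.

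The labels number the libraries as biological replicates, and only 2 numbers are shared by the zones. They do not say whether the same number means the same captures or animals. Same-numbered libraries deviated together with a correlation across genes of 0.132 for number 2 and 0.128 for number 3. The deviations of the 2 mature zone libraries mirror each other, so articular zone replicate 2 gave -0.132 with mature zone replicate 3. These correlations therefore cannot decide whether the captures were paired, and the muscle markers were high in both libraries numbered 2. Values that turned sign, none of which had passed the test, were these. With 1 library left out, Sec24b ranged from -0.07 (without mature zone replicate 3) to 1.25. Sec24c was 0.02 with upper-quartile normalization, 0.09 with limma on log2(FPKM + 1), filtered or not, 0.10 on log2(FPKM + 0.1), and from -0.31 to 0.20 with 1 library left out, above 0 without replicate 2 of the articular zone (0.07) or replicate 3 of the mature zone. Tmed5 ranged from -0.91 to 0.11 (without mature zone replicate 2) and was 0.18 without both libraries numbered 2. Trip11 was -0.06 with the replicate block, -0.30 (without mature zone replicate 2) to 0.44 with 1 library left out, also below 0 without replicate 3 (-0.09) or 4 (-0.06) of the articular zone, and -0.10 without both libraries numbered 2. The difference in ratio of Kdelr2 to Kdelr1 ranged from -0.74 to 0.03 (without mature zone replicate 3) and that of Kdelr3 to Kdelr2 from -0.45 to 0.04 (without mature zone replicate 2). The difference in ratio of Golph3 to Golph3l was -4.44 on FPKM with 0.1 added. With library totals in place of TMM the log2 ratio of the summed level of the 36 genes was -0.542 in place of -0.745.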
